A study of Rattus norvegicus with 6 samples.

Results

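The genes described here are 8 genes of arginine metabolism in degenerating rat intervertebral disc, namely the nitric oxide synthases Nos2, Nos1 and Nos3, the arginine transporter Slc7a2, the arginine-making enzymes Ass1 and Asl, the cofactor enzyme Gch1 and the polyamine enzyme Odc1. They were chosen by name, as the rows of the deposited gene count table that carry these 8 symbols, and are 8 of its 30562 genes. The libraries came from wild-type male Sprague-Dawley rats of 12 weeks whose tail disc had been punctured with a needle, in 3 libraries per group. The control discs received an injection of PBS by the study's methods and no treatment by the sample records. The other group received AF-PTK@LEV@SPP1 in 10 µL, from 24 h after surgery and at 1 mg/kg of siRNA against Spp1, the gene of osteopontin. This nanovector joins a peptide that binds annulus fibrosus cells, a linker cut by reactive oxygen species, and liposomes fused with bacterial vesicles; its siRNA is described as made against the mouse gene. The methods describe whole disc tissue and a course of 8 weeks, whereas the sample records describe macrophages sorted from digested tissue and 14 days of treatment. The records give the species as rat, but their extraction text names mice; the gene identifiers are those of rat. Transcripts of disc matrix cells were abundant in all 6 libraries, with Col2a1 between 13873 and 31980 counts-per-million (CPM).

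Arginine is a shared substrate. Nitric oxide synthases turn it into nitric oxide and citrulline, and it is also split into urea and ornithine, the precursor of polyamines and proline. In rodent macrophages Nos2 is the classical marker of inflammatory activation, and inducible nitric oxide synthase is also made by disc cells and chondrocytes exposed to inflammatory cytokines. Citrulline can be recycled to arginine by Ass1 and Asl, and nitric oxide synthases need tetrahydrobiopterin, whose synthesis starts with Gch1.

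The siRNA target comes first. Spp1 stood at 8123, 4411 and 4417 CPM in control replicates 1, 2 and 3, and at 8054, 6903 and 8461 CPM in replicates 1, 2 and 3 of the group labelled AF-PTK@LEV@SPP1. The groups overlapped, and the target was not lower in the treated group: the log2 fold change was 0.31 (SE 0.37, 95% interval -0.62 to 1.24, edgeR adjusted p = 0.628). The interval leaves room for a difference in either direction, so this value cannot show whether the labels are right. The group is called by its label throughout, as the libraries labelled AF-PTK@LEV@SPP1 or the labelled libraries.

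Control replicates 2 and 3 were nearly the same library. Over 14393 genes their counts differed by 1.33 times counting noise, with 16 genes (0.111%) differing, whereas the 5 other pairs within a group differed by 51.3 to 107 times counting noise. They were counted as 1 sample, so the comparison is of 2 distinct control samples with 3 labelled samples, and an exact two-sided test of a single value cannot go below p = 0.1. Total counts per library ran from 15560728 to 17942989, and 3 counts correspond to 0.154 to 0.193 CPM.

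In the labelled libraries Nos2 was lower and Ass1 was higher. Nos2 was 90.5-fold lower and Ass1 3.54-fold higher by the fitted log2 fold changes. Of the 8 genes, which all passed the filter on low counts, 1 was called lower and 1 higher at an adjusted p under 0.05 (edgeR's quasi-likelihood test, Benjamini-Hochberg adjustment over 15537 genes). Of all genes tested, 2.57% were called lower and 1.13% higher. In the same samples 13% of all genes were lower and 12.4% higher at an unadjusted p under 0.05, and DESeq2 called 16.6% and limma-voom 2.92% of all genes in either direction; the counts given for gene lists below stand beside these shares. The groups did not overlap for 6 of the 8 genes, beside 45.8% of all genes tested. The median log2 fold change was -0.38 over the 8 genes and 0.05 over all genes tested, and 4 of the 8 values were negative. With the 6 libraries kept separate, 4 of the 8 were called lower and 2 higher, beside 9.93% and 8.2% of all genes. The counts rest on few samples: without the labelled replicate 2, or without the labelled replicate 3, edgeR called 0 genes in all, with 3109 and 2699 genes at an unadjusted p under 0.05. In the same samples DESeq2 called 1418 and 1153 genes, 3 of the 8 genes each time, and limma-voom called 0. Without the labelled replicate 1, edgeR called 113 genes, Nos2 being the 1 gene of the 8 among them. Without control replicate 1, which leaves the summed pair as the lone control sample, it called 280 genes, Nos2 and Ass1 among them. With control replicate 1 as the lone control it called 3 genes and 0 of the 8, 3 of which had an unadjusted p under 0.05; DESeq2 then called 2 of the 8 and limma-voom 0.

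**Figure D1:**
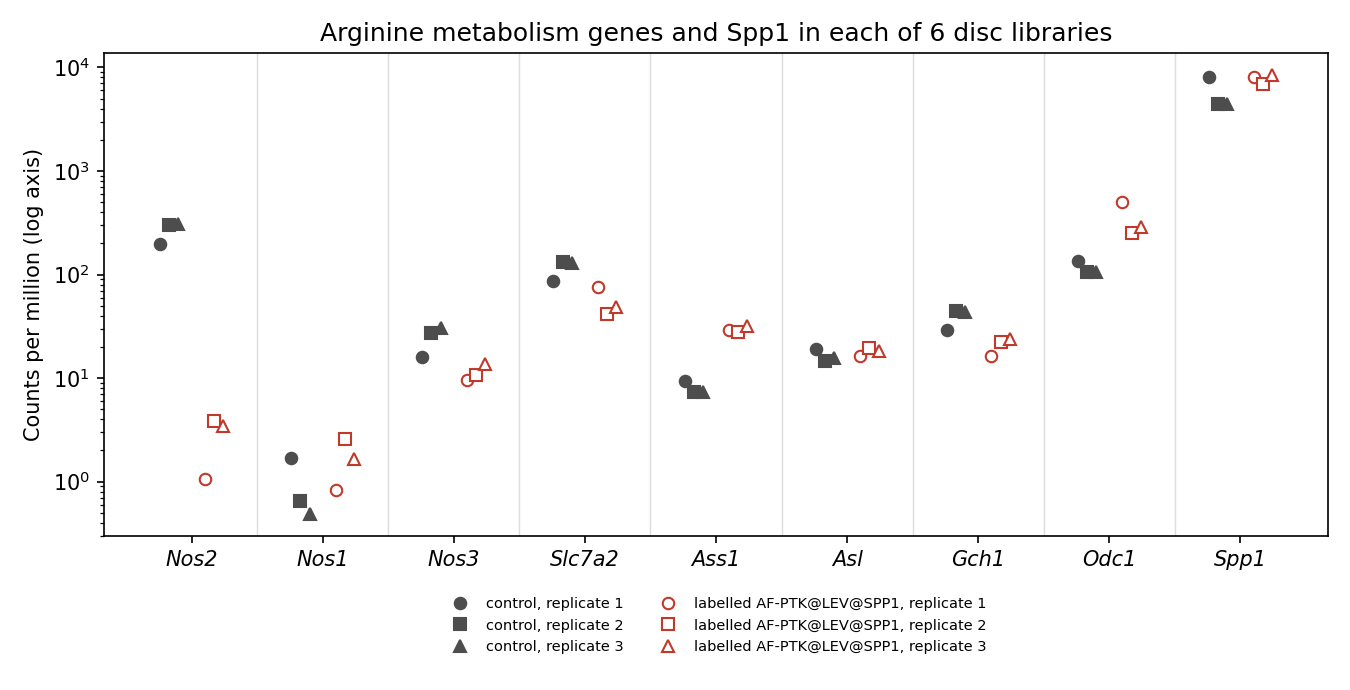
Level of each of the 8 genes and Spp1 in every library, in CPM on a log axis. Filled grey symbols are control libraries and open red symbols those labelled AF-PTK@LEV@SPP1; each replicate number has its own symbol shape. Nos2 lies between 197 and 306 CPM in the control libraries and between 1.06 and 3.86 CPM in the labelled ones.

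Nos2 encodes the inducible nitric oxide synthase. Its counts were 3841, 4663 and 5016 in control replicates 1 to 3 and 18, 64 and 60 in labelled replicates 1 to 3. In CPM it stood at 197, 300 and 306 in the control libraries and at 1.06, 3.86 and 3.42 in the labelled libraries. Each control library was far above each labelled library, and the labelled replicate 1 was the lowest of the 6. The means were 250 ± 74.8 CPM (SD, n = 2) and 2.78 ± 1.51 CPM (SD, n = 3), and the log2 fold change was -6.50 (SE 0.57, 95% interval -7.94 to -5.06, edgeR adjusted p = 0.0196). All 3 labelled libraries were above the 3-count floor, so the transcript was low and still detected. The fold change stayed between -6.80 and -6.14 over 17 alternative analyses, with adjusted p-values from 5.72e-31 to 0.136. The adjusted p was 0.0733 without the labelled replicate 2, 0.136 without the labelled replicate 3 and 0.0838 with control replicate 1 as the lone control. In bulk samples, fewer cells that make a transcript and less of it per cell cannot be told apart.

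Nos3 encodes the endothelial isoform. It stood at 16.0, 27.5 and 30.5 CPM in the control libraries and at 9.58, 10.7 and 13.6 CPM in the labelled libraries. The groups did not overlap, but control replicate 1 lay close to the labelled replicate 3. The log2 fold change was -1.01 (SE 0.30, 95% interval -1.77 to -0.25) and missed the threshold in edgeR (adjusted p = 0.126). Over the alternatives the fold change ran from -1.38, without control replicate 1, to -0.51, with control replicate 1 as the lone control. It passed in 2 of 17 alternatives, whose adjusted p-values ran from 0.0323 to 0.418, and 1 of these kept the 6 libraries separate (0.0372).

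Nos1, the neuronal isoform that skeletal muscle also makes, was low and above the 3-count floor in each library. Its counts were 33, 10 and 8 in the control libraries and 14, 43 and 29 in the labelled libraries. The groups overlapped, with high and low libraries in each. The log2 fold change of 0.60 had a 95% interval of -1.17 to 2.36, which leaves room for a difference in either direction. The value was 1.55 without control replicate 1 and -0.02 with control replicate 1 as the lone control.

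The makeup of the nitric oxide synthase reads differed between the groups. These are shares of reads, which are not corrected for transcript length, and their exact binomial intervals cover counting error alone. Nos2 took 91.8%, 91.4% and 90.8% of the reads of the 3 synthases in the control libraries, and 9.23% (95% interval 5.56 to 14.2), 22.5% (17.7 to 27.8) and 18.3% (14.3 to 23.0) in the labelled libraries. Nos3 took 7.45%, 8.39% and 9.03% in the control libraries and 83.6%, 62.5% and 72.8% in the labelled libraries. In every control library most synthase reads came from Nos2, and in every labelled library most came from Nos3. Reads of the 3 synthases together numbered 4186, 5101 and 5523 in the control libraries and 195, 285 and 327 in the labelled libraries, so the larger Nos3 share went with fewer Nos3 reads.

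**Figure D2:**
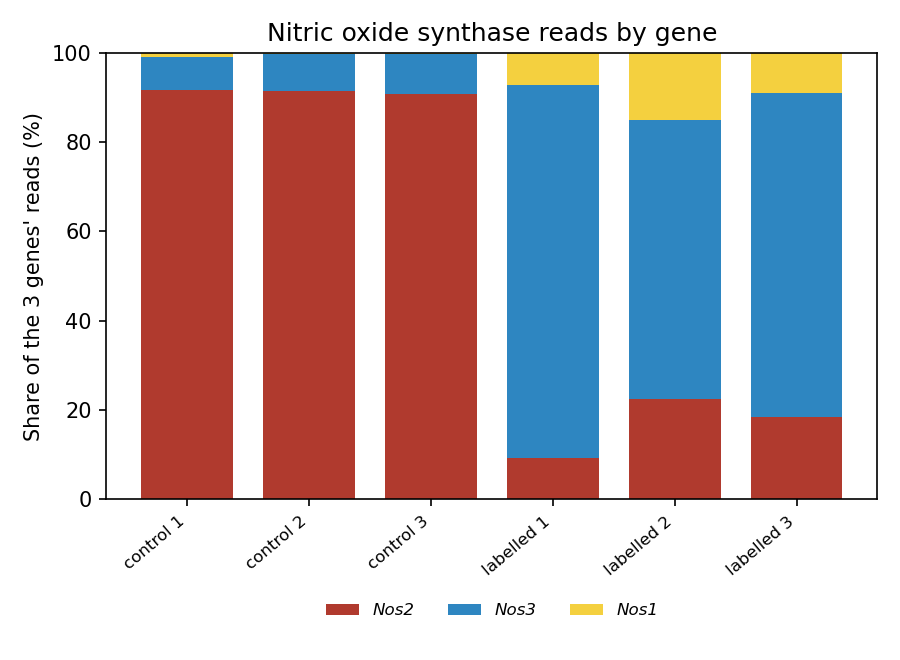
Share of each gene in the reads of the 3 nitric oxide synthases, in percent, 1 bar per library, not corrected for transcript length. Nos2 takes 90.8 to 91.8% of synthase reads in the control libraries and 9.23 to 22.5% in the labelled ones.

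Most macrophage markers had negative differences, and few were called. Of 14 macrophage and monocyte markers, which were all tested, edgeR called 2 lower (Cd68 and Cd14) and 0 higher, with 4 lower and 0 higher at an unadjusted p under 0.05, 4 called by DESeq2 and 2 by limma-voom. Of their log2 fold changes 13 were negative and 1 was positive (Cd163, 1.15, named after its values were seen), with a median of -0.83. Their summed level was 3271, 2200 and 2179 CPM in the control libraries and 741, 2057 and 2063 CPM in the labelled libraries. Lyz2, which neutrophils also make, was 36.7 to 67.9% of the sum over the 6 libraries, so the sum does not measure macrophages alone. Cd68 stood at 150, 112 and 116 CPM in the control libraries and at 28.5, 42.1 and 30.9 CPM in the labelled libraries, and Cd14 at 152, 134 and 134 CPM and at 38.2, 36.1 and 41.5 CPM. Both were lower in each labelled library, whereas the sum in the labelled replicates 2 and 3 lay close to that in control replicates 2 and 3. The labelled replicate 1 was lowest both in the sum and in Nos2. The part of these markers in the Nos2 values was not tested.

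Neutrophil markers did not separate the groups. Their summed level was 1228, 198 and 185 CPM in the control libraries and 331, 3198 and 4274 CPM in the labelled libraries, with S100a9 leading in 4 of the 6 libraries. All 10 markers tested had a positive log2 fold change (median 2.01), edgeR called 0 of them, and 0 had an unadjusted p under 0.05 or a call by DESeq2 or limma-voom. Of 5 markers of osteoclasts, which share a lineage with macrophages, edgeR called 3 lower (Ctsk, Acp5 and Dcstamp) and 0 higher, with 4 lower and 0 higher at an unadjusted p under 0.05, 4 called by DESeq2, 3 by limma-voom and a median of -2.60. Their sum was 5304, 3354 and 3367 CPM in the control libraries and 809.8, 740.1 and 477 CPM in the labelled libraries, and in the sum, of which Ctsk was 59.9 to 80.5% over the 6 libraries, every labelled library was below every control library. The groups overlapped for Calcr, which like Ocstamp was not called. Their part in the arginine genes was not tested.

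The genes closest to Nos2 in pattern over the 5 distinct samples were Cxcl1, Slpi, Cxcl6, Il1a and Mmp12. The centred log2 CPM profiles of Slpi and Mmp12 differed from that of Nos2 by a root mean square of 0.29 and 0.63. The other 3 genes reached the 3-count floor or less in a labelled library, where the CPM added before logs shapes the profile: Il1a had 0, 3 and 2 counts in labelled replicates 1 to 3, and Cxcl1 and Cxcl6 had 3 counts each in replicate 1. Cxcl1 and Cxcl6 are chemokines that attract neutrophils, Il1a is an inflammatory cytokine, Slpi is a protease inhibitor and Mmp12 is the macrophage elastase. Slpi, for example, stood at 663, 1025 and 1006 CPM in the control libraries and at 4.53, 11.3 and 18.2 CPM in the labelled libraries, with the labelled replicate 1 lowest as for Nos2.

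Of known inducers and regulators of Nos2, 15 were tested, and edgeR called 3 lower and 0 higher, with 10 lower and 0 higher at an unadjusted p under 0.05, 9 called by DESeq2 and 3 by limma-voom. Their median log2 fold change was -0.80, beside 0.05 over all genes tested. Tlr2, a receptor for bacterial lipoproteins, stood at 90.8, 80.1 and 80.0 CPM in the control libraries and at 8.17, 16.7 and 19.0 CPM in the labelled libraries (log2 fold change -2.55, edgeR adjusted p = 0.0349). Nfkbiz, a cofactor of NF-kB, stood at 102, 148 and 152 CPM and at 25.2, 19.0 and 38.1 CPM (-2.21, adjusted p = 0.0402). The groups did not overlap for either gene. The other call was Il1r1, the interleukin-1 receptor, at 129, 111 and 114 CPM and at 54.6, 51.3 and 40.2 CPM (-1.32, adjusted p = 0.0295); it was named after its values were seen.

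Slc7a2, a cationic amino acid transporter that brings arginine into macrophages, stood at 86.1, 132 and 130 CPM in the control libraries and at 76.6, 41.2 and 48.7 CPM in the labelled libraries. The groups did not overlap, but control replicate 1 and the labelled replicate 1 lay close together. The log2 fold change was -0.98 (SE 0.32, 95% interval -1.80 to -0.16) and missed the threshold in edgeR (adjusted p = 0.151). It passed in 2 of 17 alternatives, with adjusted p-values from 0.0468 to 0.465. Of 8 other arginine and ornithine transporters and partners, 6 were tested and edgeR called 0, with 1 lower and 0 higher at an unadjusted p under 0.05, 1 called by DESeq2 and 0 by limma-voom; their median log2 fold change was -0.22.

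Ass1, which joins citrulline and aspartate in the rate-limiting step of arginine resynthesis, rose. It stood at 9.45, 7.33 and 7.27 CPM in the control libraries and at 29.3, 27.8 and 32.1 CPM in the labelled libraries. The labelled libraries lay close together, and each was well above each control library. The means were 8.38 ± 1.52 CPM (SD, n = 2) and 29.8 ± 2.19 CPM (SD, n = 3), and the log2 fold change was 1.82 (SE 0.17, 95% interval 1.40 to 2.25, edgeR adjusted p = 0.0196). It stayed between 1.65 and 2.01 over 17 alternatives, with adjusted p-values from 5.61e-16 to 0.136. The call was lost without the labelled replicate 1 (0.0515), replicate 2 (0.0733) or replicate 3 (0.136), and with control replicate 1 as the lone control (0.0866).

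Asl, which completes the step from citrulline to arginine, did not move with Ass1. It stood at 19.0, 14.7 and 15.5 CPM in the control libraries and at 16.5, 19.4 and 18.2 CPM in the labelled libraries. The groups overlapped, and the log2 fold change of 0.07 had a 95% interval of -0.33 to 0.47, which lies below the interval of Ass1; the difference between the genes was not tested. Asl overlaps Vkorc1l1 and Ass1 overlaps a small nucleolar RNA gene, both on the opposite strand. Of 12 genes of the urea cycle and of the ornithine, proline, creatine and agmatine branches, 11 were tested and edgeR called 0, with 1 higher and 0 lower at an unadjusted p under 0.05, 1 called by DESeq2 and 0 by limma-voom. Their median log2 fold change was 0.00. The liver markers Alb, Apoa1, Ttr, Cps1 and Otc, of which Apoa1 led in 3 of the 6 libraries, summed to 0.719, 1.16 and 1.10 CPM in the control libraries and to 1.94, 0.905 and 3.48 CPM in the labelled libraries. Liver, the main site of the urea cycle, was thus near 0 in every library. The 1 liver marker tested, Otc, was called by none of the 3 tools and had no unadjusted p under 0.05. Cps1, which was not tested, had 0 counts in each control library and 6, 5 and 28 in labelled replicates 1 to 3. The groups overlapped for the other untested markers, Alb, Apoa1 and Ttr.

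Gch1, the first enzyme of tetrahydrobiopterin synthesis, stood at 29.1, 44.7 and 43.6 CPM in the control libraries and at 16.5, 22.4 and 23.7 CPM in the labelled libraries. The groups did not overlap, and replicate 1 was the lowest of its group in both. The log2 fold change was -0.82 (SE 0.25, 95% interval -1.45 to -0.20) and missed the threshold in edgeR (adjusted p = 0.127). It passed in 3 of 17 alternatives, with adjusted p-values from 0.0348 to 0.422. Of 7 other genes of tetrahydrobiopterin synthesis and recycling, 4 were tested and edgeR called 0, with 1 higher and 0 lower at an unadjusted p under 0.05 and 0 called by DESeq2 or limma-voom. Their median log2 fold change was 0.58, the opposite sign to Gch1.

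Partners and targets of nitric oxide synthesis showed no call in edgeR. Of 10 synthase partners and methylarginine genes, 8 were tested, with 1 higher and 3 lower at an unadjusted p under 0.05, 2 called by DESeq2, 0 by limma-voom and a median of 0.05. Of 7 genes of the nitric oxide receptor guanylate cyclase and the cyclic GMP pathway, 5 were tested, with 2 higher and 2 lower at an unadjusted p under 0.05, 3 called by DESeq2, 0 by limma-voom and a median of 0.04. Both medians were close to the 0.05 over all genes tested.

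Odc1, ornithine decarboxylase, makes putrescine from ornithine. It stood at 135, 107 and 106 CPM in the control libraries and at 506, 253 and 287 CPM in the labelled libraries. Each labelled library was above each control library, and the labelled replicate 1 was the highest of the 6. The means were 121 ± 20.4 CPM (SD, n = 2) and 349 ± 137 CPM (SD, n = 3). The log2 fold change was 1.52 (SE 0.36, 95% interval 0.61 to 2.44) and missed the threshold in edgeR (adjusted p = 0.0856), while 3 of 17 alternatives passed it, with adjusted p-values from 0.00117 to 0.311. Odc1 overlaps a small nucleolar RNA gene on its own strand.

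Of 18 other polyamine genes, 17 were tested and edgeR called 1 lower and 0 higher, with 4 lower and 0 higher at an unadjusted p under 0.05, 3 called by DESeq2 and 1 by limma-voom; their median log2 fold change was -0.22. The call was Sat1, which acetylates spermidine and spermine for breakdown or export. It stood at 281, 259 and 252 CPM in the control libraries and at 107, 96.7 and 114 CPM in the labelled libraries (-1.35, edgeR adjusted p = 0.0209). Slc3a2 stands both here and among the transporters. The groups were well apart for Sat1, in the opposite direction to Odc1.

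**Figure D3:**
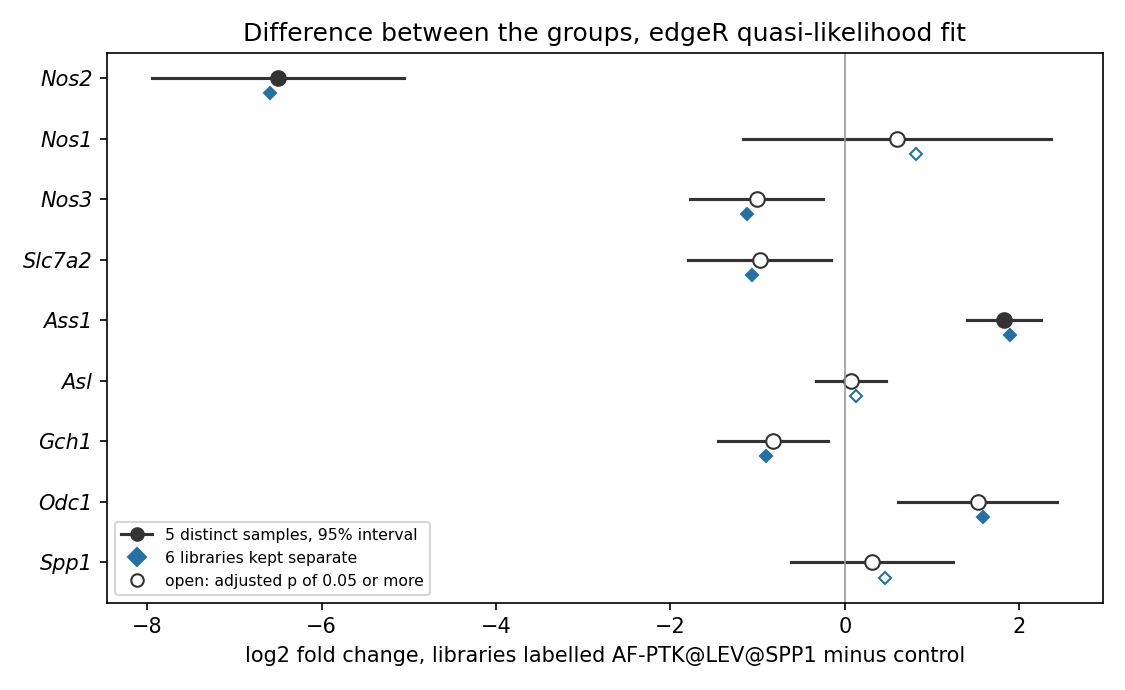
Log2 fold change of each gene, labelled minus control, by edgeR's quasi-likelihood fit. Black circles are the fit on 5 distinct samples with 95% intervals, blue diamonds the fit with 6 libraries kept separate, and filled symbols have an adjusted p under 0.05. Nos2 (-6.50) and Ass1 (1.82) are filled in both fits.

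Markers of other disc and neighbouring cells also differed between libraries, and their part in the values of the 8 genes was not tested. The 7 endothelial markers, set beside Nos3, summed to 558, 673 and 658 CPM in the control libraries and to 416, 486 and 485 CPM in the labelled libraries, with Pecam1 the most abundant. Every labelled library was below every control library; edgeR called 0 of 7, with 4 lower and 0 higher at an unadjusted p under 0.05, 3 called by DESeq2 and 0 by limma-voom. The neuron and Schwann cell markers, set beside Nos1, summed to 274, 262 and 244 CPM and to 434, 806 and 1079.5 CPM. The sum was higher in each labelled library. S100b led in 4 of the 6 libraries and was 36.3 to 95.3% of the sum over the 6 libraries. The neuron markers Snap25, Rbfox3 and Syt1 had at most 9 counts in any library. Of the 5 markers tested, 4 had a positive log2 fold change and 1, the neuron marker Tubb3, a negative one (-2.53). The skeletal muscle markers summed to 1008, 1269 and 1286 CPM and to 939, 9698 and 2539 CPM, with Acta1 leading in the 3 labelled libraries but not in the controls. The labelled replicate 2 held the most muscle transcripts and the most Nos1 counts, but control replicate 1, with 33 Nos1 counts, had a lower muscle sum than control replicates 2 and 3, with 10 and 8. Nucleus pulposus and notochord markers summed to 760.1, 327 and 319.99 CPM and to 4225, 1507 and 1788 CPM, with Cd24 the most abundant and Noto at 0 in every library. The labelled replicate 1 was the highest of the 6 in these markers and in Odc1. Of the 5 neuron and Schwann cell, 7 muscle and 6 nucleus pulposus markers tested, edgeR called 0. At an unadjusted p under 0.05, 3 neuron and Schwann cell markers were higher and 1 lower, 0 muscle markers were higher or lower, and 4 nucleus pulposus markers were higher and 0 lower; DESeq2 called 4, 0 and 4 of them, and limma-voom 0.

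The remaining markers differed in pattern. Those of annulus fibrosus and tendon summed to 55251, 79314 and 80219 CPM in the control libraries and to 114789, 81448 and 96772 CPM in the labelled libraries, with Col1a1 the most abundant. Chondrocyte markers summed to 20937, 31201 and 31070.4 CPM and to 37894, 27030.02 and 42603 CPM, with Col2a1 the most abundant. Adipocyte markers summed to 254, 42.1 and 39.6 CPM and to 531, 969 and 399 CPM, led by Adipoq in the 3 labelled libraries but not in the controls, and erythroid markers to 2343, 3182 and 3272 CPM and to 2469, 19852 and 13794 CPM, led by Hba-a1. The annulus and adipocyte sums were higher in each labelled library, the annulus sum narrowly so in the labelled replicate 2. The chondrocyte sums overlapped, and erythroid markers were highest in the labelled replicates 2 and 3. Of the 5 adipocyte, 6 erythroid, 7 annulus and 7 chondrocyte markers tested, edgeR called 0. At an unadjusted p under 0.05, 3 adipocyte markers and 1 erythroid marker were higher and 0 lower, 1 annulus marker was higher and 1 lower, and 2 chondrocyte markers were lower and 0 higher, so single markers and sums can differ in direction. DESeq2 called 3, 3, 3 and 1 of them, and limma-voom 0.

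Upstream sequences are given for the 4 genes whose groups did not overlap and for which the RefSeq promoter table (build GRCr8) has an entry, to set Ass1, which was called, beside 3 genes that were not. Of the 8 genes, 6 matched an entry. Both strands of the 250 bases before each gene's start were searched for 8 motifs. TATAAA, the box of that name, was in 12.9% of 33469 such windows and in that of Ass1. TTGCNNAA, the C/EBP motif, was in 9.22% and in that of Gch1. TGANTCA, the AP-1 motif, was in 6.34% and in that of Nos1. The other motifs were in none of the 6 windows: a pair of NF-kB motifs, which can overlap each other and were in 0.884% and 1.30% of all windows, TTCNNNGAA for STAT factors (7.67%), the E-box CACGTG (5.59%) and the hypoxia response motif TACGTG (2.95%). Capitals mark a match, which is a description of the letters alone. The windows are Ass1 at chr3:35149480-35149729 (plus strand), Odc1 at chr6:46058415-46058664 (plus strand), Gch1 at chr15:22917413-22917662 (minus strand) and Nos3 at chr4:11706582-11706831 (minus strand).
Ass1: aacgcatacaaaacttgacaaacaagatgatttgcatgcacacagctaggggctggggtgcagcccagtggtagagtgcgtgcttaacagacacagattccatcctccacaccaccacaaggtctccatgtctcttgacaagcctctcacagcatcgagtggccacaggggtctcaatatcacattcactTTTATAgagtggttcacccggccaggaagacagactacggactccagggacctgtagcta
Odc1: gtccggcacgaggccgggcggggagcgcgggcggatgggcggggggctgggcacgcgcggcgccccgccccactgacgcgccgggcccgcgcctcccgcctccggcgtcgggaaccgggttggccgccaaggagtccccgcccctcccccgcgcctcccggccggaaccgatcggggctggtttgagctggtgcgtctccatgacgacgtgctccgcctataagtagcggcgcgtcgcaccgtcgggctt
Gch1: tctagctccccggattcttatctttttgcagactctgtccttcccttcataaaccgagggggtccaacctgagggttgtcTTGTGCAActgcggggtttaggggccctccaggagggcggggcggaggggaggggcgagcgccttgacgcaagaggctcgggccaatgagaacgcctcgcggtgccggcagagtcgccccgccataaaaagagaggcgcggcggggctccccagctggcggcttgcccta
Nos3: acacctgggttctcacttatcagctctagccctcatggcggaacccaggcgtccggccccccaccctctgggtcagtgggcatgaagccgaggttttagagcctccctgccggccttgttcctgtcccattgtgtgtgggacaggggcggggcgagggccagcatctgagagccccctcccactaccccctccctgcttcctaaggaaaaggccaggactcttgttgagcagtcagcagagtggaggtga
Both matches read as the motif on the other strand. That in Ass1 starts 60 bases before the gene's start and that in Gch1 170 bases before it, and the Odc1 window is the richest of the 4 in G and C (78.0%).

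In the authors' annotation, whose rat genome build is not named, the genes lie apart. Nos2 spans chr10:63815308-63851210, Nos1 chr12:38626714-38710945 and Nos3 chr4:10793834-10814166. Slc7a2 spans chr16:51417493-51470784, Ass1 chr3:14747368-14796903, Asl chr12:26659565-26679662, Gch1 chr15:20402527-20437698 and Odc1 chr6:40329964-40336440. Nos1 and Asl share a chromosome, and no pair of the 8 overlaps.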

How the data were processed

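The authors deposited 1 table of counts per gene for 6 libraries. The submitters' processing notes name FastQC, Trimmomatic, HISAT2, featureCounts and DESeq2 without versions, and the mouse build mm10, while the gene identifiers are rat; the rat build, annotation release and strand setting are not given in the sources used here. Nothing in the table gives gene length.

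Count columns were matched to samples by group and number. Control replicates 2 and 3 were summed. Genes passing filterByExpr were fitted by edgeR 4.0.16 (R 4.3.3; TMM, quasi-likelihood test, Benjamini-Hochberg adjustment), called at an adjusted p under 0.05 at any fold; SE is the absolute log2 fold change over the square root of F. CPM uses TMM-scaled totals. Pattern distances used log2 of CPM plus 0.125, leaving out genes whose mean log2 CPM was below 0. Named genes are the 8, Spp1, the 5 nearest to Nos2, and the 2 largest calls per direction of each of 7 gene lists; 12 marker lists are given by sum, with a leading gene. Also named are Il1r1, Slc3a2, Noto, Vkorc1l1, all liver markers and single macrophage, osteoclast and neuron markers, to show a count, an overlap or an exception. Members and lists were chosen with earlier results of these data known. On simulated counts of 15280 genes in 5 distinct samples, 200 changed 4-fold, edgeR recovered 88% of the changed genes, limma-voom 87% and DESeq2 88%, and 3.30%, 2.79% and 13.3% of their calls were false. The simulated counts gave all genes the same dispersion and held no outlying library, so these rates may not hold for the deposited counts. Alternatives included DESeq2 1.42.0, limma-voom (limma 3.58.1), other scalings and filters, and left-out libraries. Of the 10 genes of the set, 2 stayed in every fit and are not reported here, nor are the results that need them; counts are over the other 8.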

Additional observations from a re-analysis of the deposited data

How the results depend on the processing

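The signs for Nos2, Nos3, Slc7a2, Ass1, Gch1 and Odc1 held in all 17 alternatives run, and those for Nos1, Asl and Spp1 in 16 of 17; no scaling moved the median of all genes by more than 0.1 (log2). Against 175 genes called higher and 400 lower, the 6 libraries kept separate gave 1233 and 1494, with 2 of the 8 genes higher and 4 lower. The near-identical pair then counts as separate samples, and its part in these counts was not tested. DESeq2 gave 1132 and 1440, again with 2 higher and 4 lower; the cause was not tested.

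With the replicate number as a replicate block on the 6 libraries, 307 genes were called higher and 434 lower, with 2 of the 8 genes higher and 2 lower. Nothing in the labels pairs the rats, and since control replicates 2 and 3 are nearly the same library, deviations by number could not be judged. Against the fit with control replicates 2 and 3 summed, Gch1 (edgeR adjusted p = 0.0367) and Odc1 (0.0380) gained a call. No other call among the 8 genes changed against that fit. With the 6 libraries kept separate and no block, Gch1 (0.0366) and Odc1 (0.0177) were already called. Against that fit without the block, the calls lost were those of Nos3 (0.0372 without the block, 0.0530 with it) and Slc7a2 (0.0468 and 0.150).

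Leaving out libraries, including the near-identical pair together, gave 0 to 170 genes called higher and 0 to 396 lower, and 0 to 1 higher and 0 to 1 lower among the 8. The zeros are from edgeR fits with libraries left out, and their cause was not tested. Where control replicate 1 or the summed pair is the lone control, it is assumed to vary like the labelled samples. For Nos2 the log2 fold change was -6.78 without control replicate 1 and -6.16 with control replicate 1 as the lone control. Over all fits with libraries left out it ran from -6.80 to -6.14. Length-scaled levels were not run. Depth limits Nos1, whose counts were 8 to 43.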
